A study of Mus musculus with 10 samples.

Results

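The genes described here are 9 complement genes measured in the kidneys of old mice: the 3 chains of C1q (C1qa, C1qb and C1qc), the C1 proteases C1ra and C1s1, the central component C3, the classical component C4b, factor B (Cfb) of the alternative pathway, and Serping1, the inhibitor of C1. They were chosen by symbol for their place in the pathway, and all 9 were present among the 13299 genes of the expression table and passed the filter on low values. Whole kidney was compared between 5 samples of Rragc S74N/+ and 5 of Rragc +/+ mice, all 1.5 years old, to ask how the tissue differs in aged mice with raised nutrient signaling. Rragc encodes the small GTPase RagC, through which cells report their nutrient supply to mTORC1. Its S74N knock-in, made with Crispr editing in C57BL/6 mice and carried on a single allele in every tissue, yields an active form. The labels gave no sex for any sample and no replicate numbers, so replicates are named 1 to 5 within each genotype in order of deposit. The labels did not say which samples came from separate mice, but the authors give n = 5 mice of each genotype for kidney RNA sequencing at this age. The p-values measure only the spread between these 10 samples.

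Complement is a set of plasma proteins that mark microbes, immune complexes and dying cells for removal. In the classical pathway, C1q, built from A, B and C chains in equal number, binds the target and activates the proteases C1r and C1s, which cut C4 and C2 into the enzyme that cleaves C3. In the alternative pathway, C3 binds factor B directly and the cascade amplifies itself, held back by regulators on host surfaces. Liver supplies most circulating complement. In tissues, macrophages are the main makers of C1q, while kidney tubule cells, fibroblasts and macrophages can make C3.

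Expression was read at the 3′ end of polyadenylated RNA, so that counts do not scale with transcript length. Values are normalized counts, which are reads divided by a size factor of the sample, and fold changes are differences on the scale of log2(normalized count + 1), S74N/+ against +/+. A gene was called when the limma p-value, adjusted over all 13236 genes tested, was under 0.05. Depth in the 8 samples whose reads could be recovered was 4488493 to 5797251 reads. Rragc itself gave 146 ± 42.7 normalized counts in +/+ and 124 ± 26.4 in S74N/+ kidneys (SD, n = 5 each; limma adjusted p = 0.51), and counts at the 3′ end do not show the allele. Markers of the kidney were abundant in both genotypes, with Slc34a1, a phosphate transporter of the proximal tubule, at means of 18242 in +/+ and 16084 in S74N/+, and the Y-linked genes Ddx3y, Uty, Kdm5d and Eif2s3y were detected in all 10 samples.

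C3 and C1qb were higher in Rragc S74N/+ kidneys and the other 7 genes did not pass the threshold. C3 showed the larger change, a 4.63-fold difference of means, and C1qb rose 1.68-fold. These were 2 of 9 genes called, against 6.03% of all tested genes called in either direction and 3.45% called higher, and 0 of 9 were called lower, against 2.58%. For the same 2 genes every S74N/+ kidney was above every +/+ kidney, as it was for 4.15% of all tested genes. C1qb and C3 were also the 2 members called by edgeR and by DESeq2 on the reads of 8 samples, which called 6.43% and 10.6% of all tested genes. The log2 fold change was above 0 in 8 of the 9 genes, against 48.7% of all tested genes, and its median over the 9 was 0.46, against -0.01 over all tested genes. At an unadjusted p under 0.05, C1qa and C4b joined C1qb and C3, which made 4 of 9 against 25.4% of all tested genes. In bulk tissue, a change in the number of cells that make a transcript and a change in the RNA per cell cannot be told apart.

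**Figure D1:**
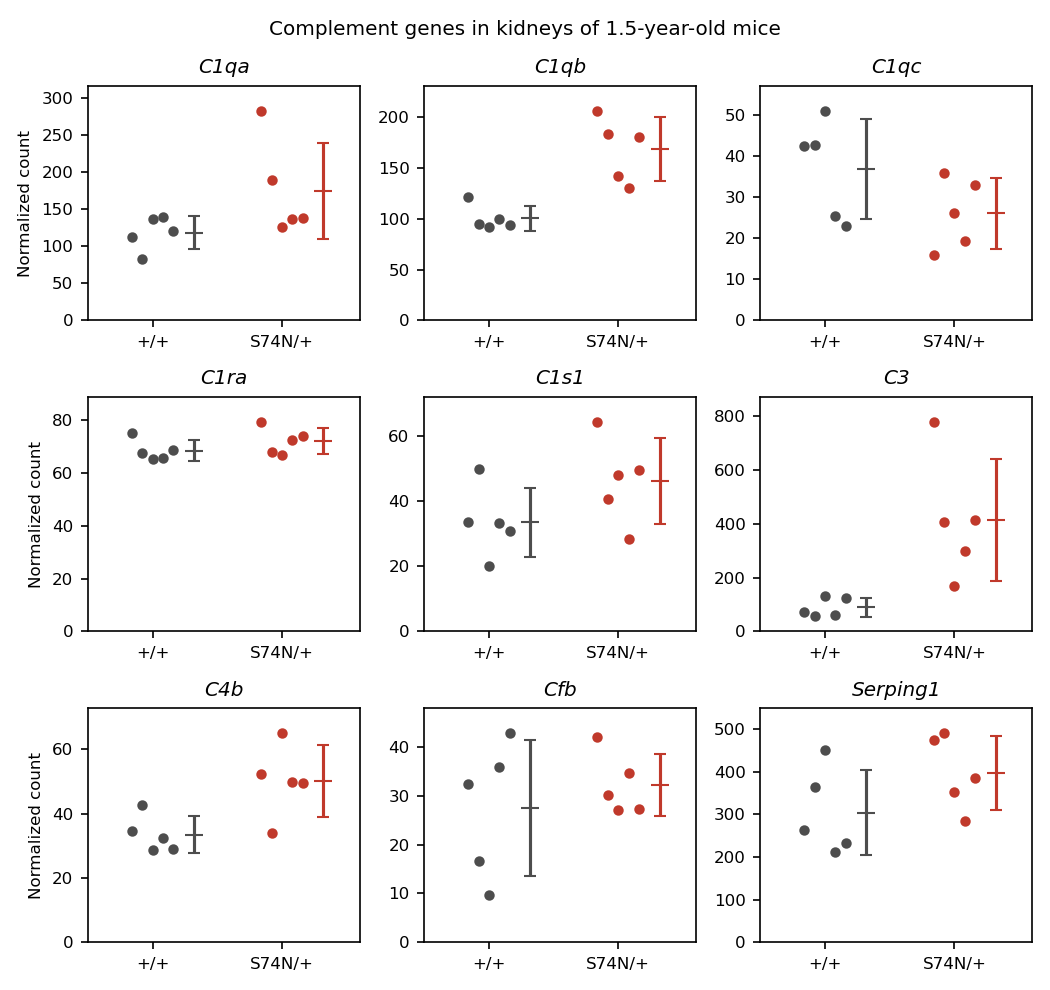
Normalized counts of the 9 complement genes (y axis, linear from 0, a separate scale for each gene) in the 5 Rragc +/+ (grey) and 5 Rragc S74N/+ (red) kidneys. Points are samples in order of replicate, and the horizontal mark with bars is the mean ± SD. For C3 and C1qb every red point lies above every grey point, and for the other 7 genes the genotypes overlap.

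C3 is the protein on which the complement pathways converge, and its cleavage fragments tag surfaces and attract leukocytes. The 5 Rragc +/+ kidneys held 72.7, 57.2, 132, 59.4 and 124 normalized counts of C3. The Rragc S74N/+ kidneys held 778, 406, 170, 298 and 413. Every S74N/+ kidney was thus above every +/+ kidney, and the closest values were 170 in S74N/+ replicate 3 and 132 in +/+ replicate 3. The means were 89.2 ± 36.4 and 413 ± 226.5 (SD, n = 5 each). On the log2 scale the difference was 2.12 ± 0.33 (SE; limma adjusted p = 0.0017), with a 95% interval of 1.42 to 2.82. An exact two-sided permutation test of the counts gave p = 0.0079, the smallest that 5 against 5 samples allow. S74N/+ replicate 1 stood highest, and without it the log2 fold change was 1.85 (limma adjusted p = 0.00018).

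C3 carried the largest change, and C1qb and C1qc are neighbours whose log2 fold changes had opposite signs, although that of C1qc was not called. The sequences around the annotated starts of these genes are shown. Each is 250 bases before and 30 bases from the RefSeq start (build GRCm38.p6, minus strand, printed 5′ to 3′), at chr17:57228107-57228386 for C3, chr4:136886171-136886450 for C1qb and chr4:136892885-136893164 for C1qc, and capitals mark the letters TATAAA.
C3: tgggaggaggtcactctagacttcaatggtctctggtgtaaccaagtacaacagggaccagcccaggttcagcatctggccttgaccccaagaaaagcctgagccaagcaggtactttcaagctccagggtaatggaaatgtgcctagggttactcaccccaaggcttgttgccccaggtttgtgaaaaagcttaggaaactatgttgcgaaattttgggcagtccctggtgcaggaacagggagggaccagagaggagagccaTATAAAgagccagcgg
C1qb: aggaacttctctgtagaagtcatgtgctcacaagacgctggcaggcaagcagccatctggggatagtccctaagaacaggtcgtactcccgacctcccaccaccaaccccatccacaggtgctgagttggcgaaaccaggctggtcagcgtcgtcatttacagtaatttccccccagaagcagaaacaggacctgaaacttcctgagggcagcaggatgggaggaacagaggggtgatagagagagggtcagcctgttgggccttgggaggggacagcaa
C1qc: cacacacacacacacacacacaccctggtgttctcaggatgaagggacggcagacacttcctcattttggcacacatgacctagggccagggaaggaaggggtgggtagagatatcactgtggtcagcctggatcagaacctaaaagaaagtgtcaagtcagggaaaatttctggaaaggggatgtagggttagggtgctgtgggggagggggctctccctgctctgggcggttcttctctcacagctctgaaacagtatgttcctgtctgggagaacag

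RefSeq promoters were found for 5 of the 9 genes, C1qb, C1qc, C1ra, C1s1 and C3, in 6 windows. C1s1 had 2 overlapping windows. The letters TATAAA stood in the C3 window, past its annotated start, and in no other of the 6, and 13.1% of 32851 windows of the same length hold them on either strand. The other motifs searched on both strands were the GAS element TTCNNNGAA, the interferon response core (GAAA, any 2 bases, GAAA), the NF-kB site (GGG, any 2 bases, TTTCC), the C/EBP site TTGCGCAA and the E-box of the TFEB family CACGTG. None of these letters occurred in the 6 windows, and over all windows they occurred in 7.83%, 3.28%, 1.54%, 0.18% and 6.79%, in that order. A match is a run of letters only and was not tested for function. No motif searched contains another.

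The 3 C1q chains are encoded side by side on chromosome 4, in the order C1qb, C1qc and C1qa, and C1qb alone passed the threshold. C1qb measured 122, 94.7, 92.2, 99.6 and 93.5 normalized counts in the Rragc +/+ kidneys. It measured 206, 183.2, 142, 130 and 181 in the S74N/+ kidneys. The lowest S74N/+ value stood above the highest +/+ value. Means were 100.4 ± 12.4 and 168 ± 31.4 (SD, n = 5 each), and the log2 fold change was 0.73 ± 0.15 (SE; limma adjusted p = 0.013; exact permutation p = 0.0079). Without S74N/+ replicate 1 the log2 fold change was 0.65 (limma adjusted p = 0.014).

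C1qa gave 113, 83.2, 136, 140 and 120 normalized counts in +/+ kidneys. In S74N/+ kidneys it gave 283, 190, 126, 137 and 139. S74N/+ replicates 1 and 2 stood above all +/+ kidneys, and the other three lay within the +/+ range. The difference on the log2 scale, 0.51 ± 0.21 (SE), was not called (limma adjusted p = 0.14; exact permutation p = 0.056). Without S74N/+ replicate 1 it was 0.32 (limma adjusted p = 0.26).

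C1qc, the least counted of the chains, had a difference of the opposite sign. It gave 42.5, 42.7, 50.9, 25.3 and 22.9 normalized counts in +/+ kidneys and 15.9, 35.9, 26.0, 19.4 and 33.0 in S74N/+ kidneys. The genotypes overlapped. Its log2 fold change, -0.48 ± 0.29 (SE), was not called (limma adjusted p = 0.31) and had a 95% interval of -1.09 to 0.13.

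As C1q protein needs the chains in equal number, the make-up of the C1q transcript pool was compared as the share of each chain in the summed C1q counts. The sum itself was 221 to 279 normalized counts in +/+ and 287 to 504 in S74N/+ kidneys. C1qc made up 15.3%, 19.3%, 18.2%, 9.57% and 9.66% of it in the +/+ kidneys. In the S74N/+ kidneys its share was 3.14%, 8.77%, 8.84%, 6.74% and 9.37%. The ranges did not overlap, but the highest S74N/+ share (replicate 5, 34 of 363 reads, exact Clopper-Pearson 95% interval 6.57 to 12.8%) and the lowest +/+ share (replicate 4, 29 of 303 reads, 6.50 to 13.5%) had intervals that overlapped. Mean shares were 14.4% ± 4.62 and 7.37% ± 2.57 (SD, n = 5 each), a difference of -7.05 percentage points (exact two-sided permutation p = 0.0079, or 0.024 adjusted over the 3 shares). It was -5.82 to -8.26 points when any 1 kidney was left out. The exact permutation p, not adjusted over the 3 shares, was 0.0079 in fits without a +/+ kidney. In fits without an S74N/+ kidney it was 0.040 to 0.048, also before adjustment. Those values lie so close to the threshold of 0.05 that adjustment over the 3 shares would raise them above it.

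The share difference of C1qc was not even across the samples. In the samples whose title number was under 200, 3 of each genotype, the mean share was 17.6% in +/+ and 6.92% in S74N/+. In those over 200, 2 of each, it was 9.62% and 8.05%. The number is not named as a batch in the labels, and its part in the difference was not tested. C1qb had a mean share of 39.4% in +/+ and 46.1% in S74N/+ kidneys (exact permutation p = 0.040, or 0.060 adjusted over the 3 shares), which did not hold after adjustment. C1qa took 46.2% in +/+ and 46.5% in S74N/+ kidneys (exact permutation p = 0.94). The intervals cover counting error only.

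**Figure D2:**
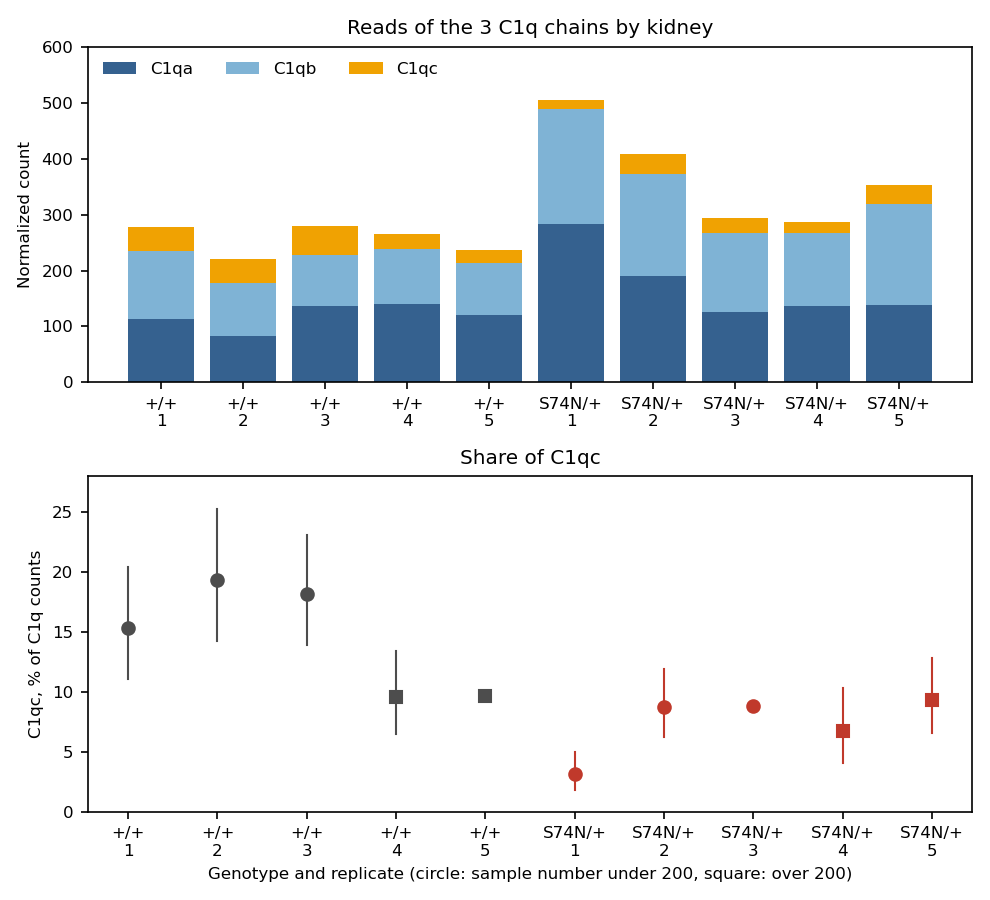
Top: normalized counts of C1qa, C1qb and C1qc stacked for each kidney (y axis, linear from 0), 5 Rragc +/+ on the left and 5 Rragc S74N/+ on the right. Bottom: the share of C1qc in the C1q counts of each kidney (y axis, percent), with the exact 95% interval for the 8 samples whose reads were recovered; circles are samples with a title number under 200 and squares those over 200. The S74N/+ stacks are all taller than the +/+ stacks, and the C1qc share lies between 3.14% and 9.37% in S74N/+ and between 9.57% and 19.3% in +/+ kidneys.

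C1ra and C1s1 encode the proteases of the C1 complex and lie next to each other on chromosome 6. C1ra was the steadiest of the 9 genes, at 74.96, 67.6, 65.3, 65.5 and 68.6 normalized counts in +/+ kidneys and 79.3, 67.8, 67.0, 72.3 and 73.8 in S74N/+ kidneys. Its log2 fold change was 0.07 ± 0.14 (SE; limma adjusted p = 0.79; 95% interval -0.23 to 0.38). C1s1 was counted at 20.2 to 49.9 in +/+ and 28.5 to 64.3 in S74N/+ kidneys. Here the log2 fold change was 0.46 ± 0.26 (SE; limma adjusted p = 0.28; 95% interval -0.09 to 1.01), and without +/+ replicate 3 it was 0.30 (limma adjusted p = 0.50). Of the 50-base words in the last 400 bases of the annotated C1s1 transcripts, 25.3% also occur in C1s2. As C1s2 was not among the genes of the expression table, the C1s1 counts are uncertain.

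C4b encodes C4, which C1s cuts. Its normalized counts were 34.7, 42.7, 28.8, 32.3 and 28.9 in +/+ kidneys and 52.2, 33.9, 65.0, 49.9 and 49.5 in S74N/+ kidneys. All S74N/+ kidneys but replicate 2 were above the whole +/+ range. An exact permutation test of the counts of this gene alone gave p = 0.024, while the log2 fold change, 0.55 ± 0.21 (SE), was not called over all genes (limma adjusted p = 0.12). The last 400 bases of C4b share 46.4% of their 50-base words with the near-identical C4a, so these counts may hold reads of both genes. C4a was not among the genes of the expression table.

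Cfb, the protease of the alternative pathway C3 convertase, was the most variable gene among +/+ kidneys. It gave 32.4, 16.6, 9.60, 35.8 and 42.8 normalized counts there and 42.0, 30.05, 27.0, 34.6 and 27.2 in S74N/+ kidneys. The S74N/+ values lay inside the +/+ range, and the difference on the log2 scale was 0.38 ± 0.34 (SE; limma adjusted p = 0.52). It rested on 10 to 45 reads in the samples with recovered reads, and 61% of the 50-base words at its 3′ end also belong to the overlapping annotated gene Gm20547. Without +/+ replicate 3, its lowest kidney, the difference was 0.07 (limma adjusted p = 0.91), and without S74N/+ replicate 1 as well it was -0.031 (limma adjusted p = 0.96).

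Serping1 encodes C1 inhibitor, which removes C1r and C1s from the active complex. It was the most counted of the 9 genes in +/+ kidneys, at 264, 363, 450, 211 and 232 normalized counts, and measured 475, 490, 352, 284 and 386 in S74N/+ kidneys. S74N/+ replicates 1 and 2 stood above every +/+ kidney and the others fell within the +/+ range. Its log2 fold change was 0.42 ± 0.20 (SE; limma adjusted p = 0.21; 95% interval -0.01 to 0.84).

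Of 51 other genes of the pathway that were listed by role, 29 were in the table and all of these were tested. In S74N/+ kidneys 3 were higher and 2 lower, which is 5 of 29 against 6.03% of all tested genes, and the median log2 fold change of the 29 was 0.17. The calls were spread over activation genes, the terminal pathway and regulators.

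Among regulators, Cd55, which speeds the decay of C3 convertases, went from a mean of 31.7 ± 11.1 to 60.2 ± 17.5 (log2 fold change 0.93 ± 0.25, limma adjusted p = 0.041), but among the 10 fits that left out a kidney it was called only without +/+ replicate 5 or S74N/+ replicate 4, with limma adjusted p-values of 0.053 to 0.12 in the others. C1qbp, a mainly mitochondrial protein named for binding C1q, fell from 427 ± 65.2 to 317 ± 7.95 (log2 fold change -0.42 ± 0.12, limma adjusted p = 0.048). It was called only without +/+ replicate 5 or S74N/+ replicate 1 (limma adjusted p 0.057 to 0.14 in the others), and with equal library totals it was not called (limma adjusted p = 0.088). Among the regulators that were not called, log2 fold changes ran from -0.52 for Cd59a to 0.59 for Csmd1.

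C7, a subunit of the membrane attack complex, rose from 5.24 to 21.9 normalized counts in +/+ to 17.3 to 87.7 in S74N/+ kidneys (log2 fold change 1.82 ± 0.43, limma adjusted p = 0.023). It had an overlap, as +/+ replicate 5 at 21.9 lay above S74N/+ replicate 4 at 17.3, and it was called in 6 of 10 fits that left out a kidney. Without +/+ replicate 1, 2 or 4 or S74N/+ replicate 5 the limma adjusted p was 0.064, 0.066, 0.060 and 0.055. The other tested genes of the terminal pathway, C8a and C8g, had log2 fold changes of -0.37 and -0.56 and were not called.

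Among the other activation genes, C1rl, a C1r-like protease next to C1ra, was the sole call. It fell from 101.5 ± 20.5 to 57.3 ± 12.7 (log2 fold change -0.81 ± 0.19, limma adjusted p = 0.021). It was called in 7 of 10 fits that left out a kidney, and without +/+ replicate 1 or 2 or S74N/+ replicate 5 the limma adjusted p was 0.062, 0.069 and 0.055. C2, which combines with C4, had a log2 fold change of -0.60 (limma adjusted p = 0.099), and Cfp, which encodes properdin, one of 0.92 (limma adjusted p = 0.14). No complement receptor passed. The values of C3ar1, the receptor of the C3a fragment, and of Cr2, which binds C3 fragments on B cells, did not overlap between genotypes but had limma adjusted p-values of 0.063 (log2 fold change 0.70) and 0.053 (1.50). Over all tested genes, 8.16% had genotypes that did not overlap.

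**Figure D3:**
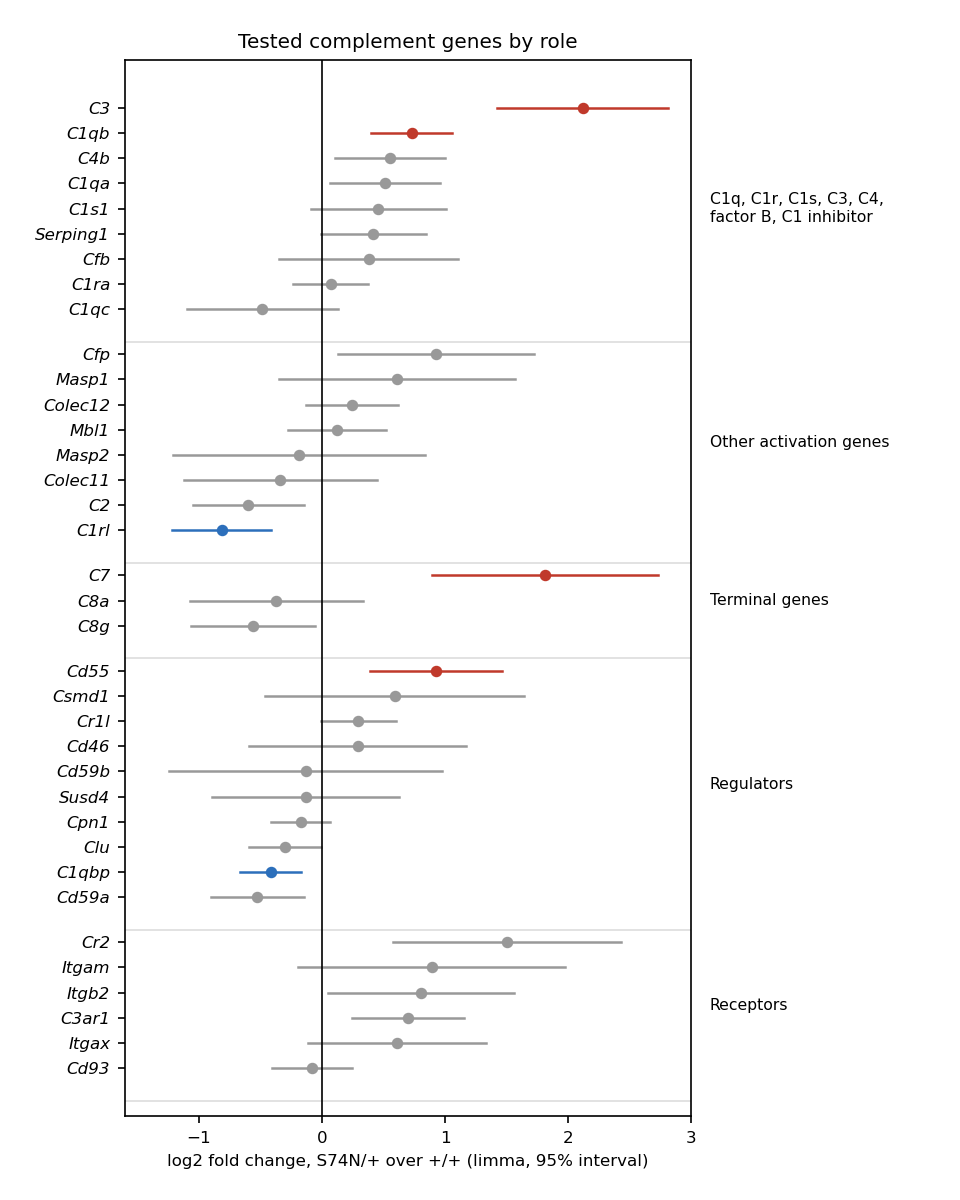
Log2 fold change, S74N/+ over +/+, with its 95% limma interval (x axis) for tested complement genes in rows grouped by role. Red points are called higher, blue points called lower and grey points not called at an adjusted p under 0.05; Cfd was left out for its interval of -3.41 to 3.75. C3, C1qb, C7 and Cd55 lie to the right of 0, and C1rl and C1qbp to the left.

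The levels of C3 and C1qb were set beside markers of cells that can be in a whole kidney. Adipocyte markers varied widely. The summed counts of Fabp4, Adipoq, Retn, Cidec, Plin1 and Lep, without the complement gene Cfd, were 55.9 to 888 in +/+ and 50.9 to 2013 in S74N/+ kidneys, and of the adipocyte markers 6 were tested, Cfd included, and 0 called. Cfd, which encodes factor D and is made in fat, ran from 0 to 2592. S74N/+ replicate 1 had the highest sum, the highest C3 and the highest C1qa and C1qb, and +/+ replicate 3 had the highest sum and C3 of its group. S74N/+ replicate 4 had the lowest sum of all 10 kidneys, 50.9, with Cfd at 0 and C3 at 298. With the mean of each genotype removed, the Pearson correlation of C3 over the 10 kidneys was 0.76 with Adipoq, 0.76 with Plin1, 0.75 with Fabp4, 0.79 with Cidec, 0.74 with Retn and 0.82 with Cfd. Among macrophage markers it was 0.80 with Mrc1, 0.64 with Cx3cr1, 0.59 with Lyz2, 0.39 with Cd74, 0.17 with Csf1r and -0.29 with Adgre1. Among fibroblast markers it was 0.79 with Dcn and 0.40 with Col1a1. For tubule injury genes it was 0.75 with Lcn2, -0.20 with Havcr1 and -0.23 with Vcam1. S74N/+ replicate 1 also had the highest Mrc1 (113), Dcn (818) and Lcn2 (306.8) of the 10 kidneys. The high values of these genes, of the adipocyte markers and of C3 thus share 1 kidney, and no correlation was recomputed without it. Without the 2 kidneys with the highest adipocyte sums, left out after the data were seen, the log2 fold change was 2.01 for C3 (limma adjusted p = 4.6e-05) and 0.62 for C1qb (limma adjusted p = 0.025). With the mean of each genotype removed, C1qb correlated with the same adipocyte markers at 0.72 (Adipoq), 0.56 (Plin1), 0.49 (Fabp4), 0.63 (Cidec), 0.77 (Retn) and 0.75 (Cfd). With the macrophage markers the values for C1qb were 0.43 (Mrc1), 0.30 (Cx3cr1), 0.40 (Lyz2), 0.57 (Cd74), -0.20 (Csf1r) and -0.16 (Adgre1). The part of adipocytes in the C3 and C1qb levels was not tested.

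**Figure D4:**
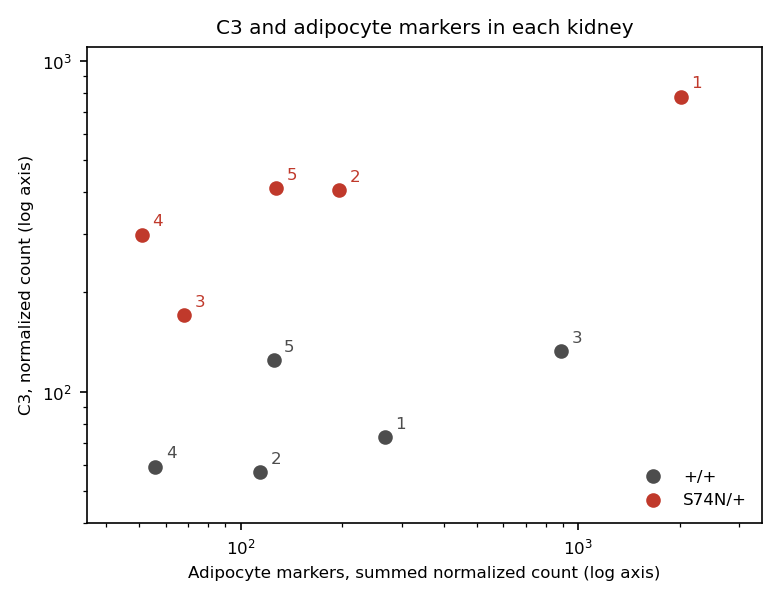
C3 normalized count (y axis, log scale) against the summed normalized count of adipocyte markers without Cfd (x axis, log scale) in each kidney. Grey points are Rragc +/+ and red points Rragc S74N/+, numbered by replicate. S74N/+ replicate 1 lies at the upper right with 2013 and 778, while the other red points lie above the grey points at sums from 50.9 to 196.

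Macrophage markers differed in both directions. Of 12 tested, 5 were called, against 6.03% of all tested genes. Cx3cr1, Aif1, Lyz2 and Cd74 were higher and Apoe was lower in S74N/+ kidneys, named after their values were seen, and the median log2 fold change was 0.41. The summed counts were 3076 to 4071 in +/+ and 3609 to 4801 in S74N/+ kidneys. This sum is dominated by Apoe and Cd74, which went in opposite directions. Apoe had means of 1809 in +/+ and 1077 in S74N/+ kidneys, and Cd74 had means of 910 and 1864. Csf1r, the receptor on which macrophages depend, had a log2 fold change of 0.44 (limma adjusted p = 0.073), and Adgre1, which encodes F4/80, one of 0.18 (limma adjusted p = 0.79). Whether the macrophage content had a part in the C1qb and C3 levels was not tested.

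Other marker lists held called genes as well, and their counts stand against 3.45% of all tested genes called higher and 2.58% called lower. Of 20 interferon-stimulated genes tested, 4 were called higher (among them Ifi44, Gbp7 and Oasl2, named after their values were seen) and 0 lower, and the summed counts of 1001 to 1208 in +/+ and 1320 to 1871 in S74N/+ kidneys did not overlap. Of 8 tubule injury genes, Havcr1, Lcn2 and Vcam1 were called higher. The most counted of them, Clu, Spp1, Cd24a and Krt8, were not called. The summed counts, 2665.4 to 3187.5 in +/+ and 2285.4 to 3798.5 in S74N/+ kidneys, overlapped. Lcn2 was at 306.8 in S74N/+ replicate 1 and at 18.3 to 72.7 in the other S74N/+ kidneys. Havcr1 was near the floor in +/+ kidneys, at 0 to 8.95. Of 10 fibroblast markers, Col1a1, Col1a2 and Pdgfra were called higher, with sums of 1872 to 2404 and 2212 to 3034, which overlapped. The log2 fold change was above 0 in 7 of these 10. It was -0.29 for Mgp, the most counted of them, -0.56 for Fbln5 and -0.13 for Pdgfrb, which were not called. T cell markers had 1 of 5 called (Trac), neutrophil markers 1 of 2 (S100a9), and B and plasma cell markers 0 of 5. Of 8 proximal tubule markers Slc5a2 was called lower, and of 8 other kidney markers Umod and Slc12a3 were called lower. The part of these cells in the complement levels was not tested.

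In each range of sample title numbers the called genes kept their direction. The difference of C3 means on the log2 scale was 2.19 under 200 and 2.02 over 200, and that of C1qb 0.77 and 0.66. Those of C4b were 0.47 and 0.69. C1qa, in contrast, had 0.79 and 0.09, C1qc -0.85 and 0.07, and Cfb 0.86 and -0.34. These values rest on 3 against 3 and 2 against 2 kidneys and were not tested.

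Among themselves the 9 genes varied from kidney to kidney in different ways. On the log2 scale with the mean of each genotype removed, the Pearson correlation over the 10 kidneys was 0.74 between C1qa and C3, 0.57 between C1qa and C1qb and 0.47 between C1qb and C3. It was -0.37 between C1qa and C1qc, 0.10 between C1qb and C1qc, and -0.72 between Cfb and Serping1. These are descriptions over 10 libraries made by the same protocol, and the counts of C1qc and Cfb are low. By the same measure, the genes outside the pathway nearest to C3 were Mtmr3 (0.97), Sparcl1 (0.96) and Pnisr (0.96), and among those nearest to the mean of the C1q chains were Tbc1d15 (0.93) and Iglc3 (0.93). They were picked for high values among all tested genes over 10 kidneys and are a description only.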

How the data were processed

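Whole-kidney RNA in 5 samples of Rragc S74N/+ and 5 of Rragc +/+ mice was measured by 3′ mRNA sequencing (QuantSeq FWD, oligo-dT primed, sense stranded). Per the labels, 300 ng of RNA with a quality score of 6.2 to 7 (mean 6.7) entered each library. The authors aligned reads to GRCm39 with TopHat2 2.0.10, Bowtie 1.0.0 and SAMtools 0.1.19 after FastQC 0.11.7, counted them per gene with HTSeq 0.6.1 on a GENCODE annotation, and divided them by size factors. The deposited values are thus a signal on the scale of normalized counts, with gene symbols only, and low genes had been left out by a rule not stated.

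Genes with a normalized count of at least 5 in at least 5 samples (13236 of 13299) were tested on log2(normalized count + 1) by a limma 3.58.1 model of genotype (R 4.3.3) that used an eBayes variance trend. P-values were two-sided and adjusted by the Benjamini-Hochberg method, with a threshold of 0.05. The pseudocount understates the change of low genes. Single values and shares were compared by exact two-sided permutation. Dividing by the step of each column gave whole reads (tolerance 0.02) in 8 of 10 samples, and edgeR 4.0.16 (quasi-likelihood) and DESeq2 1.42.0 were run on these as alternatives. This could not be tested for replicate 5 of Rragc +/+ and replicate 3 of Rragc S74N/+, whose step was close to 1.

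Promoters came from RefSeq (GRCm38.p6) and 3′ ends from GENCODE on GRCm38, another build than that of the counts, and were used for names, neighbours and sequence only. All 9 members are described, and of the other complement genes those past the threshold. Of the marker lists, genes are named by abundance or where few were called. The nearest genes were the 3 with the highest correlation. Results on some of the genes that these rules name are not reported here. Members, lists and tests were chosen with earlier results of these data known. The limma fit was tested on simulated data.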

Additional observations from a re-analysis of the deposited data

Results flagged for a closer look

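Each of 36 groups of 5 kidneys was searched for a kidney distant from its group, and 1 was found, where chance gives about 1.8. C1qb in Rragc +/+ replicate 1 was at 121.9 normalized counts, while the other 4 kidneys of the genotype lay between 92.2 and 99.6. The gap was 0.75 of the range of the group, above the critical value of 0.71. Without this kidney the log2 fold change of C1qb was 0.80 (limma adjusted p = 0.020).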

How the results depend on the processing

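C3 and C1qb were the 2 members called under each of the 23 alternatives run (pseudocounts, filters, scalings, variance models, count models on 8 samples, the title number range as a term, and samples left out). The log2 fold change of C3 ran from 1.85 to 2.57 (adjusted p at most 0.022) and that of C1qb from 0.62 to 0.82 (adjusted p at most 0.041). The highest C3 value, 2.57, came from edgeR on 8 samples, and limma on the same 8 gave 2.54. Those 8 leave out S74N/+ replicate 3, the lowest S74N/+ kidney for C3 at 170 normalized counts. They also leave out +/+ replicate 5, at 124. None of the other 7 members was called under any alternative that tested it (a minimum mean of 50 left out C1qc, C1s1, C4b and Cfb), and Cfb alone changed sign, to -0.031 without Rragc S74N/+ replicate 1 and Rragc +/+ replicate 3 together, an alternative that, like the values within title number ranges, was chosen after seeing the data. C1ra had an exact permutation p of 0.040 for its normalized counts with equal library totals (difference 7.53), which moved the median of all genes from -0.01 to 0.06.

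The count of other complement genes called was 5, but 3 with a minimum mean of 50, 2 without the variance trend, 8 with DESeq2, and 1 to 6 when a kidney was left out (1 without +/+ replicate 1, +/+ replicate 2 or S74N/+ replicate 5; 2 without +/+ replicate 4; 3 without +/+ replicate 3 or S74N/+ replicate 3). Over all genes 798 were called, but 391 without the variance trend, 1402 with DESeq2 and 311 to 902 when a kidney was left out (368, 311 and 383 without +/+ replicates 1, 2 and 4, and 371 without S74N/+ replicate 5). With equal library totals 718 were higher and 225 lower, against 457 and 341. The difference in the C1qa share ran from -2.04 to 2.11 points when a kidney was left out, reversed to -1.03 and -1.78 without +/+ replicates 1 and 2 and to -2.04 and -0.0049 without S74N/+ replicates 1 and 4. That in the C1qb share ran from 5.11 to 8.03. Its exact permutation p, not adjusted over the 3 shares, missed the threshold in 7 of 10 such fits. In these 7 the difference was 5.11, 6.27 and 6.74 without +/+ replicates 3, 4 and 5. Without S74N/+ replicates 2, 3, 4 and 5 it was 7.05, 6.17, 6.90 and 5.43. The cause of these changes was not tested. No paired analysis was possible because the labels carry no replicate numbers. Genes with few reads per sample, such as C1qc (17 to 53) and Cfb (10 to 45), are limited by counting error.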
